A study of Mus musculus with 2 samples.

Results

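Carboxylesterases and the oxidizing and reducing enzymes other than cytochromes P450 were compared between small hepatocytes (SHs) and mature hepatocytes (MHs) of the adult mouse liver. The genes were chosen by symbol alone. They were the carboxylesterases (Ces), flavin-containing monooxygenases (Fmo), aldehyde oxidases (Aox), epoxide hydrolases (Ephx) and members of aldo-keto reductase family Akr1c, together with Aadac and Por, which gave 44 of the 43280 counted genes. Poly(A) RNA of each cell type was sequenced on an Ion Proton system as 1 library. Both came from livers of C57BL6 mice labelled as 20 weeks old, whose labels give no sex or treatment, and both cell types were taken from the same animals after collagenase perfusion. The methods name 3 mice as the source of the cells, give a younger age range and state that mice of both sexes were used in the study. MHs were the hepatocytes that sedimented at low speed, freed of dead cells on Percoll and not sorted. SHs were taken from the supernatant and sorted by FACS as CD31-, CD45-, EpCAM- and ICAM-1+ cells, so the MH library can hold cell types that the sort removed from the SH library.

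These enzymes carry out the first steps of drug and lipid turnover in hepatocytes that do not use a cytochrome P450 as the catalyst. Carboxylesterases cut ester and amide bonds of drugs, triglycerides and cholesterol esters in the lumen of the endoplasmic reticulum. Flavin-containing monooxygenases, aldehyde oxidases and epoxide hydrolases respectively oxygenate nitrogen and sulfur compounds, oxidize aldehydes and nitrogen heterocycles, and open epoxides. Aldo-keto reductases of the Akr1c family reduce steroids and carbonyl compounds. Por encodes the reductase that passes electrons from NADPH to the microsomal cytochromes P450, so it is their partner and not one of them.

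The MH library held 16979136 counted reads and the SH library 42356444. Levels are given as reads per 1000000 counted reads of the library (RPM), and 3 reads, the floor used here, came to 0.177 RPM in MHs and 0.0708 in SHs. Ratios are log2 values of SHs against MHs with 0.5 added reads, and the 95% Clopper-Pearson interval given with each covers counting error only, since there was no replicate of either cell type and no molecular identifiers. No p-value could therefore be given, and "lower" or "higher" below means that this interval lay wholly on that side of 0 in these 2 libraries. A member "at least 1.5-fold" lower or higher met this as well as the fold. The hepatocyte genes Alb, Apoa1, Ttr, Hnf4a, Cps1 and Tdo2 had ratios between -0.19 and 0.13. Markers of other liver cells differed far more. The 10 endothelial genes summed to 86.6 RPM in MHs and 4.41 in SHs, the 9 counted macrophage genes to 17.4 and 1.02, and the 9 stellate cell genes to 19.6 and 2.12. Of those with at least 10 reads, 10 of 10 endothelial, 7 of 8 macrophage and 7 of 7 stellate cell genes were lower in SHs. Over all genes of that depth, 15.5% were lower. Lyve1 had 14 reads in MHs and 0 in SHs. Marco, under that minimum, had 3 and 0. The 6 cholangiocyte genes summed to 14.0 and 14.1 RPM, with Krt19 and Krt7 at 1 read in each library and Cftr at 0 in SHs. Sox9 and Spp1 held most of these reads and went opposite ways. The ratio of Sox9 was 0.50 (0.16 to 0.85) and that of Spp1 -0.33 (-0.63 to -0.02). Epcam, which the sort selected against, was lower, with 6 reads in MHs and 1 in SHs. The part of these other cells in the ratios below was not tested, and fewer cells of a type cannot be told apart from less RNA per cell.

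As a group, the 44 genes accounted for 1.04% of MH reads and 0.935% of SH reads, and most of the well-counted enzymes were slightly lower in SHs. Of the 44, 35 had at least 10 reads over both libraries, 4 had between 1 and 9, and 5 had none. Among the 35, 19 were lower (54.3%) and 3 were higher (8.57%), whereas of all 15521 genes with at least 10 reads 15.5% were lower and 16.8% were higher. Their median log2 ratio was -0.19, beside 0.02 for all these genes. A narrow interval is easier to reach with many reads, so the 25 members with at least 1000 reads were also set beside the 5055 genes of that depth. Of these members, 16 were lower (64.0%, against 21.1%) and 3 were higher (12%, against 31.2%), with a median of -0.17 against 0.04. The lower values were small in size. Only 3 of the 35 members, Ces2b, Ces2c and Ces4a, were at least 1.5-fold lower (8.57%, against 6.2% of all genes with at least 10 reads), and 0 were at least 1.5-fold higher (against 3.5%). None of the 25 deepest members passed 1.5-fold in either direction, compared with 1.68% of genes lower and 0.87% higher at that depth.

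**Figure D1:**
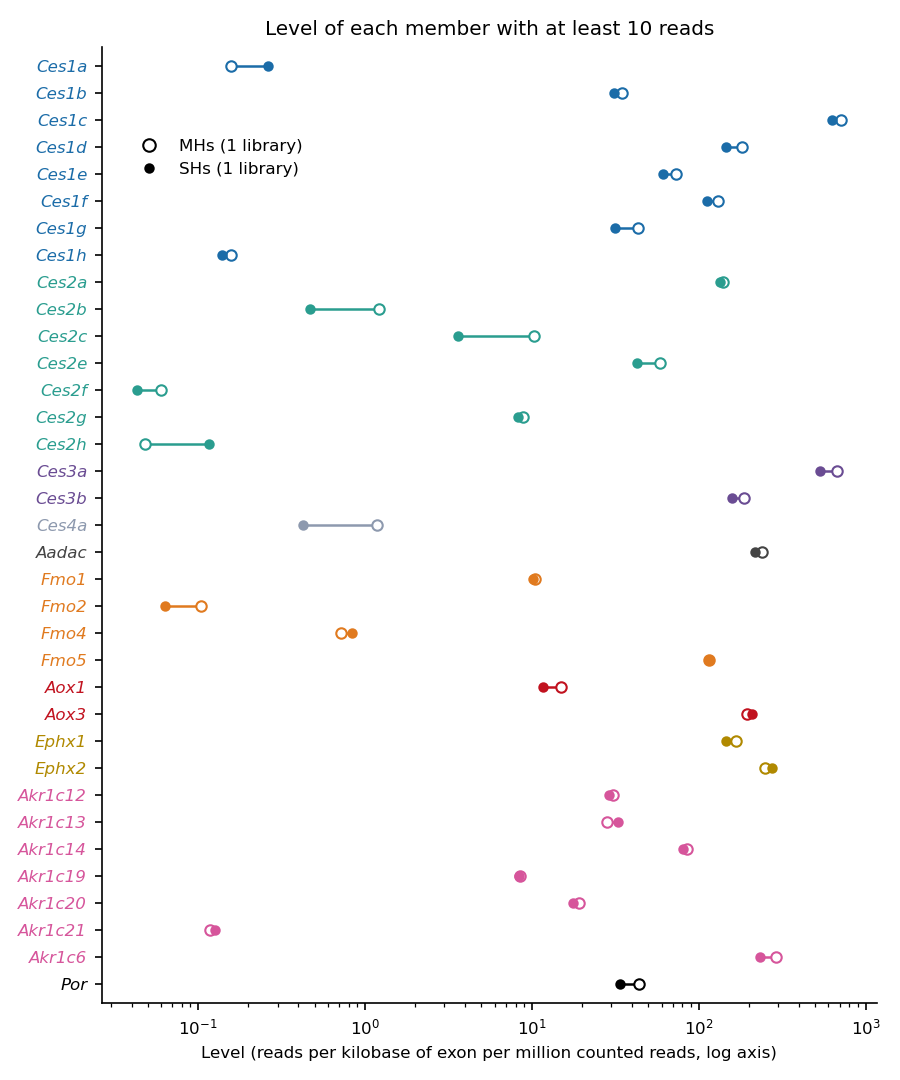
Level of the 35 members with at least 10 reads, in reads per kilobase of exon per 1000000 counted reads on a log axis. Open circles are the MH library and filled circles the SH library, coloured by family. Most pairs nearly overlap over a wide range of levels, and the widest gaps among genes above 1 in MHs are those of Ces2b, Ces2c and Ces4a.

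Per kilobase of exon, the same genes stood at the top in both libraries. Ces1c had the highest level of all 44, with 718 reads per kilobase per 1000000 reads in MHs and 628 in SHs, and Ces3a was next, with 676 and 534. Akr1c6 took place 3 in MHs and 4 in SHs, and Ephx2 the reverse. Aadac, Aox3, Ces3b, Ces1d and Ephx1 held places 5 to 9 in that order in both. The order of these 9 genes was thus nearly the same in the libraries.

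The Ces1 group, 8 neighbouring genes on chromosome 8 that include the main lipid hydrolases of the hepatocyte, was lower as a whole. Its summed reads were 0.286% of the MH library and 0.244% of the SH library, a log2 ratio of -0.23 (95% interval -0.24 to -0.21). Ces1c (chr8:93099015-93131283 of mm10, minus strand), which encodes the carboxylesterase that mouse liver secretes into plasma, had 28320 reads in MHs and 61833 in SHs. These were 1668 and 1460 RPM, a ratio of -0.19 (-0.21 to -0.17). Ces1d encodes the triacylglycerol hydrolase that mobilizes stored fat for lipoprotein assembly. It had 7303 and 14640 reads, or 430.1 and 345.6 RPM, a ratio of -0.32 (-0.36 to -0.27). Ces1f, a further lipid hydrolase of the group, had 428.3 and 366.4 RPM from 7273 and 15521 reads, a ratio of -0.23 (-0.27 to -0.18). Both were therefore lower, Ces1d by slightly more, and their intervals did not overlap.

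Ces1e, known as egasyn, which holds β-glucuronidase in the endoplasmic reticulum, had 2707 reads in MHs and 5696 in SHs. Its level was 159 RPM in MHs and 134 in SHs, a ratio of -0.25 (-0.31 to -0.18). Gusb, which encodes that β-glucuronidase, was on the other side, at 30.6 and 35.2 RPM, a ratio of 0.20 (0.06 to 0.35). Ces1g, a lipid hydrolase of the same group, had the lowest ratio among the 6 Ces1 genes with at least 200 reads. It had 1769 and 3212 reads, or 104 and 75.8 RPM, a ratio of -0.46 (-0.54 to -0.37). Ces1b had 1160 and 2574 reads, 68.3 and 60.8 RPM, and a ratio of -0.17 (-0.27 to -0.07). The remaining members were barely counted. Ces1a had 6 and 25 reads and Ces1h 5 and 11, with intervals that included 0.

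The ratio of 2 genes within a library does not depend on how the libraries were scaled. Each MH read of Ces1g stood beside 16.0 reads of Ces1c, and each SH read beside 19.3, a log2 difference of -0.27 (-0.35 to -0.18). Ces1d also moved down against Ces1c, by a difference of -0.12 (-0.17 to -0.08). For Ces1b, Ces1e and Ces1f, the interval of the difference from Ces1c included 0, from a lowest bound of -0.12 for Ces1e to a highest of 0.13 for Ces1b. Ces1b and Ces1c are 91.1% identical over their aligned coding bases, and 9.92% of the 50-base words in Ces1b transcripts also occur in Ces1c, so reads could have been divided between them. Their summed ratio was -0.19 (-0.21 to -0.17).

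The Ces2 group held both the least and the most changed of the well-counted carboxylesterases. These genes encode esterases of liver and gut that hydrolyse drugs, diacylglycerol and triacylglycerol. Ces2a (chr8:104734003-104741634, plus strand) had 5630 reads in MHs and 13395 in SHs. Its levels of 332 and 316 RPM gave a ratio of -0.07 (-0.11 to -0.02), which no longer excluded 0 when the 10 genes with the most reads were left out of the totals (-0.04, -0.08 to 0.01). Ces2c (chr8:104847068-104854483) had 404 reads in MHs and only 352 in the deeper SH library. It was at 23.8 RPM in MHs and 8.31 in SHs, a ratio of -1.52 (-1.73 to -1.31), or 2.86-fold lower. Among the 9608 genes with at least 200 reads, 36 had a lower ratio. Ces2b, which lies between them, had 70 and 68 reads, or 4.12 and 1.61 RPM, a ratio of -1.36 (-1.86 to -0.86).

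Ces2e, the next member along the chromosome, was intermediate. It had 2697 and 4896 reads, 159 and 116 RPM, and a ratio of -0.46 (-0.53 to -0.39). Ces2g had 540 and 1259 reads, 31.8 and 29.7 RPM, with an interval of -0.24 to 0.05. Ces2f had 5 and 9 reads and Ces2h 2 and 12, too few to place. Summed, the Ces2 genes had a ratio of -0.22 (-0.26 to -0.19). This sum followed Ces2a, which took 60.2% of the group's reads in MHs and 67.0% in SHs, and without Ces2a it was -0.49 (-0.55 to -0.43). The reads of Ces2a outnumbered those of Ces2c 13.9 to 1 in MHs and 38.1 to 1 in SHs, a log2 difference of -1.45 (-1.66 to -1.24). Against Ces2a, Ces2e differed by -0.39 (-0.47 to -0.31), and the interval for Ces2g included 0 (-0.18 to 0.12).

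Ces2c is the member whose reads are least certain to be its own. Of its 50-base words, 36.1% occur in transcripts of another gene, mostly in the pseudogene Ces2d-ps (32.7%), and its coding bases are 92.1% identical to those of Ces2b. Ces2d-ps had 52 MH and 69 SH reads, a ratio of -0.91 (-1.45 to -0.36). Summed over Ces2b, Ces2c and Ces2d-ps, a sum that does not depend on how reads were divided among these 3, there were 526 reads in MHs and 489 in SHs. That is a ratio of -1.42 (-1.60 to -1.24). Some of their 50-base words also occur in genes outside the sum. Ces2a, with which the other Ces2 genes were compared, shared 17.3% of its words with other genes, mostly Gm7208 (16.3%).

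The bases before the start sites of Ces2a, Ces2c and Ces2e are shown because these closely placed paralogs had different ratios, and those of Ces4a because it also passed 1.5-fold. Ces2b, which passed it too, had no window. RefSeq's table for build GRCm38.p6 held a window for 36 of the 44 genes. Each line gives 250 bases on the plus strand up to the base before the annotated start, in lower case, with capitals for a match to any of 5 short motifs searched on both strands.
Ces2a (chr8:104733753-104734002): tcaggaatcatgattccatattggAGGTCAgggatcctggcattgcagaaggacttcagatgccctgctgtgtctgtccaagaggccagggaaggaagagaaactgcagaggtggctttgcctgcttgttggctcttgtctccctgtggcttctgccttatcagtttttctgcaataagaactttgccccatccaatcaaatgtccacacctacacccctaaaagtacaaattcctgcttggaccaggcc
Ces2c (chr8:104846818-104847067): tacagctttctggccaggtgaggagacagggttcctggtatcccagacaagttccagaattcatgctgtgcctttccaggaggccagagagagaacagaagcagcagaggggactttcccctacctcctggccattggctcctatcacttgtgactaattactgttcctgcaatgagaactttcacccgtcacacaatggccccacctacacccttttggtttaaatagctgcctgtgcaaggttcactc
Ces2e (chr8:104926010-104926259): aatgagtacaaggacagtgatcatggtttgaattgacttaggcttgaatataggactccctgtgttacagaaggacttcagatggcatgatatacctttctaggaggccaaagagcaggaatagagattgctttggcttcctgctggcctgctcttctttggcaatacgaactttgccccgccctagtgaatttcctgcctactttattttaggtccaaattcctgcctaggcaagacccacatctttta
Ces4a (chr8:105131550-105131799): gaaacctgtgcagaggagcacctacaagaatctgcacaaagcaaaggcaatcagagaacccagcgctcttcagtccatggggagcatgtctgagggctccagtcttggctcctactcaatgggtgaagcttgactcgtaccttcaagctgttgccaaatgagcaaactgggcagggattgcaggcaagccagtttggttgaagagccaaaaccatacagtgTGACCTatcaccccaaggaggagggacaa

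The motifs were the TATA box as TATAAA, a nuclear receptor motif as AGGTCA, the core of an HNF4 site as AAAGTCCA, the core of a TCF/LEF site as CTTTGA and the core of an AHR site as GCGTG. Matches of different motifs were allowed to overlap. Ces2a held AGGTCA, whose first base lay 226 bases before the start. Ces4a held its reverse complement 29 bases before the start, and the windows of Ces2c and Ces2e held none of the 5. AGGTCA occurred in 14.0% of all 32851 windows and in 6 of the 39 windows of the members. TATAAA occurred in 12.4% and 7 of 39, AAAGTCCA in 1.01% and 1 of 39, CTTTGA in 13.8% and 4 of 39, and GCGTG in 28.2% and 4 of 39. Of these 250 bases, gaps included, 66.4% matched between Ces2a and Ces2c after alignment, 60.4% between Ces2a and Ces2e, and 59.2% between Ces2c and Ces2e. The matches were 166 among 243 aligned bases, 151 among 216 and 148 among 217, in the same order. The coding bases of the same pairs were between 83.0% and 84.3% identical. That share was taken over aligned bases only, so it is not the same measure as the share of the whole window.

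Ces3a and Ces3b, hepatocyte carboxylesterases of the same cluster, were both lower. Ces3a (chr8:105048601-105058413, plus strand) had the most MH reads of all members, 30136, and 59451 reads in SHs. The levels were 1775 and 1404 RPM, and the ratio was -0.34 (-0.36 to -0.32). Ces3b had 8098 and 17168 reads, 476.9 and 405.3 RPM, and a ratio of -0.23 (-0.27 to -0.20). Relative to Ces3a, Ces3b was higher in SHs by 0.10 (0.06 to 0.15). The coding bases of Ces3a and Ces3b are 95.3% identical and they share 50-base words, 25.6% of those in Ces3a and 26.2% of those in Ces3b. Their sum, 0.225% of MH reads and 0.181% of SH reads, had a ratio of -0.32 (-0.33 to -0.30).

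At the end of this cluster, Ces4a (chr8:105131800-105150109) had 49 reads in MHs and 44 in SHs. It was at 2.89 and 1.04 RPM, a ratio of -1.47 (-2.10 to -0.86), and no 50-base word of its transcripts occurs in another annotated gene. Ces5a had 0 reads in both libraries. Over all 19 Ces genes, the share fell from 0.566% of reads in MHs to 0.473% in SHs, a ratio of -0.26 (-0.27 to -0.25). Of the 18 genes with at least 10 reads, 13 were lower and 0 higher. Over all genes of that depth, 15.5% were lower and 16.8% higher.

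**Figure D2:**
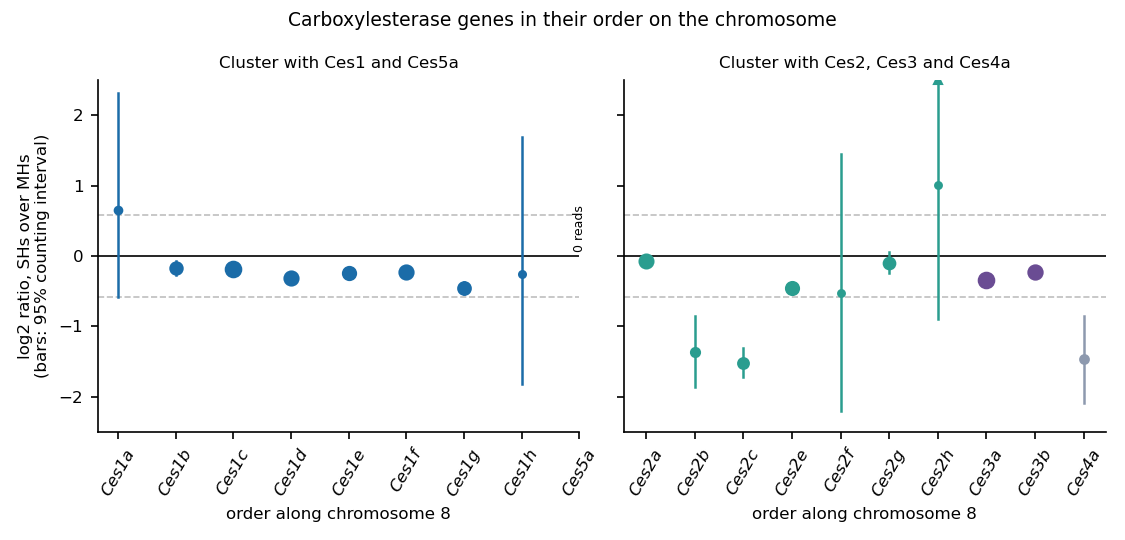
The log2 ratio of SHs over MHs for the Ces genes in their order on chromosome 8, with bars for the 95% counting interval and larger points for more reads. Dashed lines mark 1.5-fold, and the arrow marks an interval that runs beyond the axis. The well-counted Ces1 genes lie between -0.46 and -0.17, whereas Ces2b, Ces2c and Ces4a lie below -1.3 beside Ces2a at -0.07.

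Aadac, the arylacetamide deacetylase, is an esterase anchored in the membrane of the endoplasmic reticulum that hydrolyses arylacetamide drugs. It had 6127 MH and 13840 SH reads, or 361 and 327 RPM, and a ratio of -0.14 (-0.19 to -0.10). Nceh1, which encodes the related neutral cholesterol ester hydrolase, was lower by more, at 18.8 and 10.1 RPM, a ratio of -0.90 (-1.11 to -0.69).

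Of the flavin-containing monooxygenases, the 4 with at least 10 reads all had intervals that included 0. Their summed reads were 0.0720% in MHs and 0.0723% in SHs, a ratio of 0.01 (-0.02 to 0.04). Fmo5 (chr3:97628804-97655282, plus strand), the most abundant, had 11055 reads in MHs and 27785 in SHs. It was at 651 and 656 RPM, a ratio of 0.01 (-0.02 to 0.04). Its interval rose above 0 when totals left out the 10 genes with the most reads (0.01 to 0.07) or counted protein-coding genes only (0.00 to 0.07), so no direction is given. Fmo1, a broad drug oxygenase, had 1114 and 2704 reads, 65.6 and 63.8 RPM, with an interval of -0.14 to 0.06. Fmo5 outnumbered Fmo1 9.92 to 1 in MHs against 10.3 to 1 in SHs, a change whose interval included 0 (-0.16 to 0.06). Fmo4 had 45 and 132 reads and Fmo2 10 and 15, both with intervals that included 0. Fmo6 and Fmo9 had 0 reads in both libraries. Given the floor, that allows up to 0.177 RPM in MHs and 0.0708 in SHs.

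The 2 aldehyde oxidases of the hepatocyte went in opposite directions. Aox3 (chr1:58113130-58200698, plus strand), the main aldehyde oxidase of mouse liver, had 23199 reads in MHs and 62222 in SHs. Its levels were 1366 and 1469 RPM, a ratio of 0.10 (0.08 to 0.13). Aox1 (chr1:58029931-58106413), its upstream neighbour on the same strand, had 2207 and 4317 reads, or 130.0 and 101.9 RPM, a ratio of -0.35 (-0.43 to -0.28). There were 10.5 reads of Aox3 for each of Aox1 in MHs and 14.4 in SHs, a log2 difference of -0.46 (-0.53 to -0.38) for Aox1 against Aox3. No 50-base word was shared between Aox3 and any other gene, and 0.612% of those of Aox1 occurred in another. The further genes of this cluster, Aox4 and Aox2, had 1 read each in MHs and 5 and 3 reads in SHs. The summed Aox reads were 0.150% in MHs and 0.157% in SHs, a ratio of 0.07 (0.05 to 0.09) that followed Aox3. Without Aox3 it was -0.35 (-0.42 to -0.27).

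Aldehyde oxidases need a sulfurated molybdenum cofactor. In the list of 9 genes for that cofactor and for other molybdenum enzymes, 0 passed 1.5-fold, 2 were lower, 3 were higher, and the median ratio was -0.02. Over all genes with at least 10 reads, 15.5% were lower and 16.8% higher. With at least 1000 reads these shares were 21.1% and 31.2%. Mocos, which sulfurates the cofactor for Aox and Xdh, had 62.5 RPM in MHs and 61.8 in SHs, with an interval of -0.12 to 0.09. Xdh, the related xanthine dehydrogenase, was at 116.6 and 124.4 RPM, a ratio of 0.09 (0.02 to 0.17). Marc1, the gene of the list with the most reads and a mitochondrial amidoxime reductase, had 398 and 385 RPM and a ratio of -0.05 (-0.09 to -0.01).

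The epoxide hydrolases also split. Ephx2 (chr14:66084374-66124500, minus strand) encodes the soluble enzyme that opens epoxides of fatty acids. It had 10584 reads in MHs and 28796 in SHs, or 623.4 and 679.8 RPM, a ratio of 0.13 (0.09 to 0.16). Ephx1 (chr1:180976210-181020904, minus strand) encodes the microsomal enzyme that opens epoxides made from drugs and aromatic hydrocarbons by cytochromes P450. It had 5537 and 11983 reads, 326 and 283 RPM, and a ratio of -0.21 (-0.25 to -0.16). Ephx2 had 1.91 times the reads of Ephx1 in MHs and 2.40 times in SHs, a log2 difference of -0.33 (-0.39 to -0.27) for Ephx1 against Ephx2. Ephx3 had 1 read, in SHs, and Ephx4 none. With the 2 enzymes on opposite sides of 0, the sum of the family had 0.0949% of reads in MHs and 0.0963% in SHs, a ratio of 0.02 (-0.01 to 0.05).

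**Figure D3:**
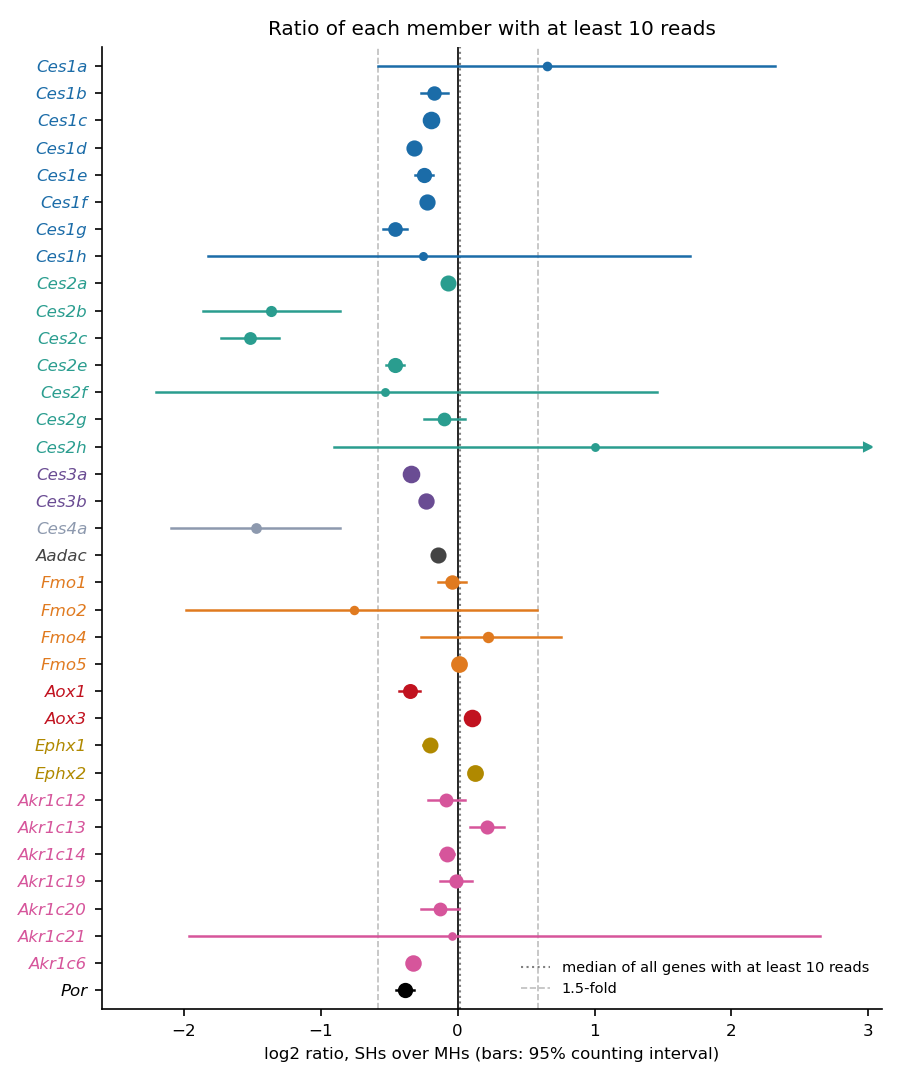
The log2 ratio of SHs over MHs for each member with at least 10 reads, coloured by family, with bars for the 95% counting interval and larger points for more reads. The dotted line is the median of all genes with at least 10 reads (0.02), and dashed lines mark 1.5-fold. Points of the well-counted Ces genes lie to the left of 0, those of Fmo5 and Fmo1 at 0, and Aox1 and Ephx1 lie to the left of Aox3 and Ephx2.

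The Akr1c family, 8 genes in a cluster on chromosome 13, was lower in sum, mostly through its most abundant gene. The sum was 0.103% of reads in MHs and 0.0900% in SHs, a ratio of -0.20 (-0.22 to -0.17), and without Akr1c6 it was -0.04 (-0.08 to -0.01). Akr1c6 (chr13:4434306-4457877, plus strand) encodes a hydroxysteroid dehydrogenase that acts on androgens and estrogens in liver. It had 10036 reads in MHs and 19996 in SHs, or 591.1 and 472.1 RPM, a ratio of -0.32 (-0.36 to -0.29). Akr1c14, which reduces dihydrotestosterone, had 4688 and 11094 reads, 276 and 262 RPM. Its ratio was -0.08 (-0.13 to -0.03), with an interval of -0.09 to 0.01 when the 10 genes with the most reads were left out of the totals.

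Akr1c13 was the only member of this family that was higher, with 691 reads in MHs and 1999 in SHs, 40.7 and 47.2 RPM, and a ratio of 0.21 (0.09 to 0.34). Akr1c12, of the same cluster, had 656 and 1544 reads, 38.6 and 36.5 RPM, with an interval of -0.22 to 0.05. The coding bases of Akr1c12 and Akr1c13 are 96.2% identical, 28.6% of the 50-base words of Akr1c12 occur in Akr1c13, and their summed ratio of 0.08 had an interval that included 0 (-0.01 to 0.17). Akr1c19 had 853 and 2106 reads, 50.2 and 49.7 RPM, with an interval of -0.13 to 0.10. Akr1c20 had 609 and 1388 reads, 35.9 and 32.8 RPM, with an interval of -0.27 to 0.01 that lay wholly under 0 with TMM scaling (-0.29 to -0.01). The 5 other genes with at least 200 reads all stood higher relative to Akr1c6 in SHs than in MHs, by between 0.19 for Akr1c20 and 0.54 for Akr1c13, each with an interval above 0. Akr1c21 had 3 and 8 reads and Akr1c18 1 and 4.

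Por (chr5:135670033-135735326, plus strand) was lower, with 2999 reads in MHs and 5737 in SHs. Its levels of 177 and 135 RPM gave a ratio of -0.38 (-0.45 to -0.32), and 541 of the 9608 genes with at least 200 reads had a lower ratio. The 99 Cyp genes, which include the microsomal partners of Por and also mitochondrial enzymes that Por does not serve, together held 1.84% of reads in MHs and 1.38% in SHs, a ratio of -0.41 (-0.42 to -0.40). There were 104 Cyp reads for each Por read in MHs against 102 in SHs, a change whose interval included 0 (-0.04 to 0.09 for Por against the Cyp sum). Por and the summed Cyp genes therefore stood in nearly the same proportion in both libraries. This holds for the sum only. Within it, Cyp2e1 had a ratio of -1.89 and Cyp2f2 one of 0.06.

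Other electron transfer genes, listed beside Por, had ratios on both sides of 0. The list includes Fdxr and Fdx1, which belong to the mitochondrial chain and not to that of Por. Of 9 listed, 2 were lower, 3 were higher and only Fdxr passed 1.5-fold, with a median of -0.02. Over all genes, 15.5% were lower and 16.8% higher with at least 10 reads, and 21.1% and 31.2% with at least 1000. Cyb5a, cytochrome b5, which can pass an electron to cytochromes P450, stood at 492 RPM in MHs against 400.1 in SHs, a ratio of -0.30 (-0.34 to -0.26). Cyb5r3, the reductase of cytochrome b5, went the other way, at 260 and 323 RPM, with a ratio of 0.31 (0.26 to 0.36). Fdxr, the mitochondrial adrenodoxin reductase, was also higher, with 11.7 and 17.8 RPM and a ratio of 0.61 (0.38 to 0.85). Hmox1, heme oxygenase, had 71 and 138 reads and an interval of -0.78 to 0.07.

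Genes past 1.5-fold also appeared in the lists of other esterases and of lipid hydrolases. For scale, among all genes with 10 reads or more, 6.2% were lower and 3.5% higher by this fold. With 1000 reads or more, these shares were 1.68% and 0.87%. With no fold required, they were 15.5% and 16.8% from 10 reads, and 21.1% and 31.2% from 1000. Among 10 other esterases and hydrolases, 1 passed 1.5-fold, namely Pon1, the liver-secreted paraoxonase carried on high-density lipoprotein. The level of Pon1 was 354 RPM in MHs against 209 in SHs, a ratio of -0.76 (-0.81 to -0.71), whereas Pon3 had a ratio of -0.19 (-0.29 to -0.10) and the interval of Pon2 was -0.08 to 0.20. The median of that list was 0.03, with 2 genes lower and 3 higher. Among 10 lipid hydrolases and lipid droplet proteins, 4 were lower and 1 was higher, with a median of -0.06. Nceh1 was the only one at least 1.5-fold lower and Pnpla3, with 14 and 67 reads, the only one at least 1.5-fold higher. Mttp, the list's most counted gene, which loads triglyceride onto apolipoprotein B, had a ratio of -0.17 (-0.21 to -0.12).

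Carbonyl reductases outside the Akr1c family were in part higher. Of the 10 with at least 10 reads, 0 were lower, 6 were higher and 4 had intervals that included 0, and the median was 0.15. Over all genes of that depth, 15.5% were lower and 16.8% higher. With at least 1000 reads, which all the higher reductases except Akr1b7 had, 31.2% of genes were higher. Cbr1, carbonyl reductase, had a ratio of 0.39 (0.27 to 0.51) and Akr1d1, the steroid reductase of bile acid synthesis, one of 0.23 (0.15 to 0.31). Hsd11b1, the most counted, had 393 and 398 RPM and an interval of -0.02 to 0.06. Akr1b7 was the single gene past 1.5-fold on the fitted ratio, with 0 reads in MHs and 11 in SHs. The interval of its log2 ratio began at 0.009. With the floor of 3 reads put in for MHs it was 1.47-fold higher, short of 1.5-fold. Akr1b8, under the minimum of 10 reads with 8 in MHs and 1 in SHs, went the other way. The interval of its log2 ratio was -9.79 to -1.42. Among the 6 quinone and amine oxidizing enzymes with at least 10 reads, 1 was higher. This was Maob, a mitochondrial monoamine oxidase, at 95.4 and 131 RPM, a ratio of 0.46 (0.38 to 0.54).

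**Figure D4:**
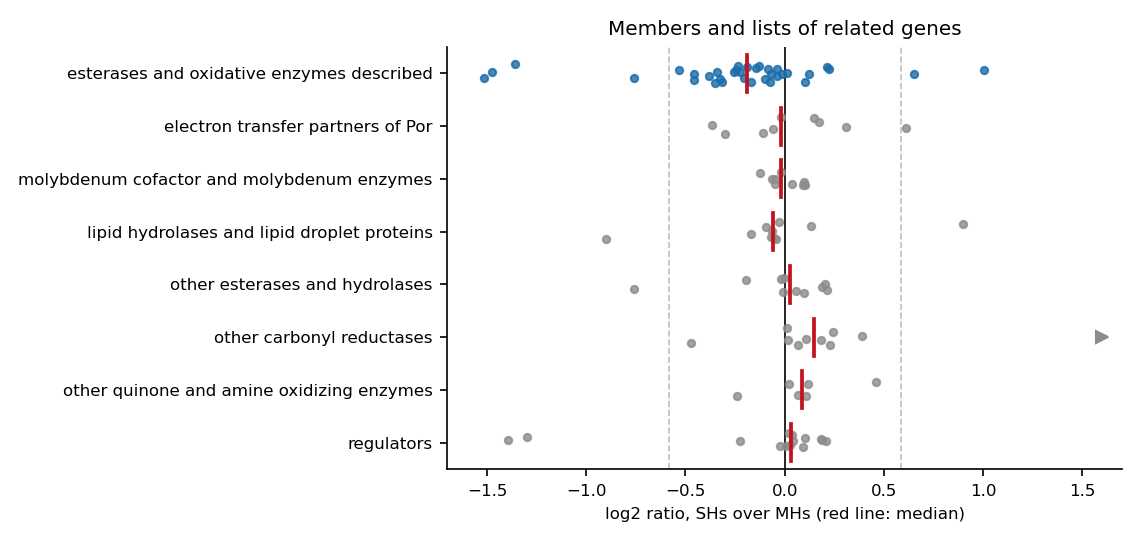
Log2 ratio of SHs over MHs for each gene with at least 10 reads, for the members (blue) and for the lists of related genes (grey), with the median of each in red and dashed lines at 1.5-fold. The triangle is Akr1b7, which had 0 reads in MHs and whose fitted ratio lies beyond the axis. The members have the lowest median, -0.19, and the medians of the lists lie between -0.06 and 0.15.

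Among 14 transcription factors and sensors that act on such enzymes in liver, 3 were lower and 5 higher, and 2, both lower, passed 1.5-fold. Over all genes with at least 10 reads, the shares were 15.5% lower, 16.8% higher and 6.2% at least 1.5-fold lower. With at least 1000 reads, which all of the 14 except Ahr had, they were 21.1%, 31.2% and 1.68%. Nr1i3 encodes CAR, the receptor through which phenobarbital-like drugs induce liver enzymes. It had 679 MH reads and 645 SH reads, or 40.0 and 15.2 RPM, a ratio of -1.39 (-1.55 to -1.24). Ahr, the receptor for aromatic hydrocarbons, had 378 and 383 reads, 22.3 and 9.04 RPM, and a ratio of -1.30 (-1.51 to -1.09). Nr1i2, which encodes PXR, was on the other side, at 52.5 and 59.7 RPM, a ratio of 0.18 (0.07 to 0.30). Hnf4a, the list's most counted gene, had 633 and 649 RPM and a ratio of 0.04 (0.00 to 0.07), and the median of the list was 0.03.

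Genes that mark the ends of the liver lobule spanned a wider range than the members. The 10 genes of hepatocytes around the central vein had ratios from -4.23 to -0.64, and the 9 of hepatocytes near the portal vein ratios from 0.06 to 1.29. Among the members that were lower, Ces2b, Ces2c and Ces4a lay within the first range. Ces1g and Ces2e, the next lowest among members with at least 200 reads, lay above it. The higher members, Aox3, Ephx2 and Akr1c13, lay within the second only because Cyp2f2, at 0.06, set its low end. They were under the next portal vein ratio, 0.26 for Arg1, and the median of that list was 0.50. Whether the position of the cells in the lobule bears on these ratios was not tested.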

How the data were processed

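According to the methods, reads were quality-trimmed by the authors, who aligned them to mm10 in CLC Genomics Workbench while capping the hits of each read, and gave expression as RPKM. The values they deposited are raw read counts per gene symbol. The program and annotation behind these counts are not given in the sources used here, so reads of close paralogs are uncertain.

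Counts were scaled by the library total, and log2 ratios with 0.5 added reads and 95% Clopper-Pearson intervals were computed in Python 3.11.15 (numpy 2.4.6, pandas 2.3.3, scipy 1.17.1). Differences between 2 genes used the sample odds ratio and its normal-approximation interval. With 1 library per cell type there was no test. A member was described in full with at least 200 reads, with reads and ratio or interval from 10 reads, and with reads alone under 10; 1 gene is not reported here. Of the lists, the most counted gene and genes past 1.5-fold with at least 200 reads were named. Further list genes (Gusb, Mocos, Xdh, Cyb5r3, Hmox1, Pon2, Pon3, Pnpla3, Cbr1, Akr1d1, Akr1b7, Akr1b8, Fdx1, Maob, Nr1i2, Sox9, Spp1, Epcam, Cyp2e1, Cyp2f2, Arg1) and Ces2d-ps were chosen after their values were seen. The members and lists were chosen with earlier results of these data known.

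Positions, exon lengths, coding bases and 50-base words came from GENCODE M21 (mm10), in which all 44 members were found, with alignments in Biopython 1.88. Scalings by edgeR 4.0.16 (TMM) and DESeq2 1.42.0 (size factors), other totals, 2 added reads, other read minimums, a 2-fold threshold and a thinned SH library were alternatives. The calculation was tested on simulated data.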

Additional observations from a re-analysis of the deposited data

How the results depend on the processing

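No paired analysis was possible because each cell type had 1 library. No library was left out for the same reason, and the spread between animals is unknown. The scalings moved all genes by between -0.023 (TMM) and 0.032 (totals without the 10 most counted genes) on the log2 scale. The counts of list genes as lower or higher used library totals only. Some of these genes had a bound nearer to 0 than such a shift, so their direction depends on the scaling. Among them were Hnf4a (lower bound 0.003), Xdh (lower bound 0.019) and Marc1 (upper bound -0.008).

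With TMM, DESeq2 size factors, totals that omit the 10 most counted genes and totals over protein-coding genes, in that order, the summed ratio of Ces1 was -0.25, -0.25, -0.19 and -0.20. That of Ces3 was -0.34, -0.34, -0.28 and -0.29, that of all Ces -0.28, -0.28, -0.23 and -0.24, and that of Aox 0.048, 0.048, 0.10 and 0.093. The members' median was -0.22, -0.21, -0.16 and -0.17. Without the 10 genes with the most reads, Fmo was at 0.038, Ephx at 0.052 and Akr1c at -0.17. Leaving out the member with the most reads gave -0.28 for Ces1, -0.49 for Ces2, -0.23 for Ces3, -0.033 for Fmo, -0.20 for Ephx, -0.045 for Akr1c and -0.29 for all Ces, and it reversed Aox to -0.35, since Aox1 then supplied nearly all of its reads.

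The number of members at least 1.5-fold lower was 0 among those with at least 1000 reads, since Ces2b, Ces2c and Ces4a had fewer. With no fold required, 19 were lower and 3 higher. The median was -0.14 with at least 1 read and -0.17 with at least 1000. With 2 added reads and with the SH library thinned to the MH total, all 35 member ratios stayed within their counting intervals. Under each of the other scalings, 32 did so and 3, those of Ces1c, Ces3a and Aox3, fell outside. Across these scalings the ratio of Ces1c ran from -0.215 to -0.161. That of Ces3a ran from -0.361 to -0.307 and that of Aox3 from 0.082 to 0.136. Their counting intervals are therefore narrower than the spread between scalings.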
